A study of Mus musculus with 10 samples.

Results

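The genes described here are the secreted CCN proteins and the YAP pathway genes tied to them, 9 in all of the 19938 genes that the arrays measured with a named probe set. They are Ccn1 to Ccn5, the YAP target genes Ankrd1 and Amotl2, and the coactivator genes Yap1 and Wwtr1, each read by 1 probe set annotated to that gene alone. The 9 were chosen by their known roles with the difference in signal between the genotypes already in view. Those differences, with their intervals and any call in the fit over all genes, are therefore a description, and no p-value is printed for them. The intervals and calls make no allowance for that choice and are not tests of the 9. Whole oviducts came from prepubertal mice, 21 to 23 days old at the first injection, that carried a lacZ insertion disrupting both isoforms of the progesterone receptor gene Pgr. Homozygous animals (PRKO) lack the receptor in every cell, and the heterozygous controls (PR+/-) carry 1 disrupted allele themselves and are fertile. Both genotypes were primed with 5 IU of equine chorionic gonadotropin, given 5 IU of human chorionic gonadotropin (hCG) after 44 to 47 h, and dissected 8 h after hCG. Each of the 5 arrays per genotype holds a pool of 3 animals, so the spread given is that between pools.

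CCN proteins are small modular proteins of the extracellular matrix that signal rather than build structure, binding integrins, heparan sulfate and growth factors. Ccn1 and Ccn2 are the classic readout of YAP and its relative TAZ, the product of Wwtr1, which enter the nucleus and bind TEAD factors at target genes. The Hippo kinases hold YAP and TAZ in the cytoplasm by phosphorylation, and tension in the actin skeleton releases them. The same genes also respond to serum response factor (SRF) and its actin-sensing coactivators. In the Müllerian tract the Hippo kinases have been linked to maintenance of the mesenchyme that forms the wall, and the oviduct wall is rich in smooth muscle.

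The letters GGAATG, which TEAD factors recognise, stand upstream of the members whose sequence could be read. RefSeq windows of the GRCm38.p6 build were matched for 5 members, Ccn1, Ankrd1, Amotl2, Yap1 and Wwtr1, and not for Ccn2, Ccn3, Ccn4 and Ccn5. The 250 bases before the annotated start are shown 5′ to 3′ for 4 of them, 3 as targets and Wwtr1 as the coactivator, with GGAATG or its reverse complement CATTCC in capitals.
Ccn1: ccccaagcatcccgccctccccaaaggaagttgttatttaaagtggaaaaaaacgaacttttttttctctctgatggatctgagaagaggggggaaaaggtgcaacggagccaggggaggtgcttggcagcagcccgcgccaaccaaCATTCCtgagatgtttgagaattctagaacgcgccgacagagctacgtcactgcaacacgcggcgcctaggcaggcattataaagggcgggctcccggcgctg
Ankrd1: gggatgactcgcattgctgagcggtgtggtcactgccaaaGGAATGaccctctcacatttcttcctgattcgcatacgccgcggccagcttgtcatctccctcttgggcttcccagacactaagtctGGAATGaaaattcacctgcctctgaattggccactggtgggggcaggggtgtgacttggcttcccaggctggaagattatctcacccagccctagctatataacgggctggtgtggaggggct
Amotl2: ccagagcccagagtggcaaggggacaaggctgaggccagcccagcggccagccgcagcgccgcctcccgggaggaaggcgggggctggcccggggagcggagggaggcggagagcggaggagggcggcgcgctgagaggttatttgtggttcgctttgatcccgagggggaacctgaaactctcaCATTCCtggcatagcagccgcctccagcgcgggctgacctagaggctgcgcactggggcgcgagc
Wwtr1: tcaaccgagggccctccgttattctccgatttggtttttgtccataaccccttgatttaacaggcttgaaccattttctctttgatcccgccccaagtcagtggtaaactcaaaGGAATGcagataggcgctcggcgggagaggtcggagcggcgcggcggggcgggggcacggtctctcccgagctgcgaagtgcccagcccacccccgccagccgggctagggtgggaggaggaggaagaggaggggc
The Ccn1 window is chr3:145649986-145650235 on the minus strand, and its motif begins 103 bases before the start. Ankrd1, at chr19:36119845-36120094 on the minus strand, holds 2 copies, 210 and 123 bases before the start. The Amotl2 copy lies 65 bases before the start in chr9:102717554-102717803 on the plus strand. Wwtr1 (chr3:57575911-57576160, minus strand, the more upstream of 2 starts) holds 1 copy at 136 bases, and Yap1 (chr9:8004597-8004846, minus strand) 1 copy at 141 bases. Over all 32851 windows of this length, 12.6% hold the motif on either strand and 1.02% hold 2 or more copies. The steroid receptor half-site AGAACA (or TGTTCT), found in 16.1% of all windows, and the CArG box bound by SRF, found in 1.47%, had no match in these 5. A match describes letters in these windows, and no binding was measured.

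Among the 9 genes Ccn2 had the largest difference, with a mean signal 2.0-fold lower in PRKO than in heterozygous oviducts. Wwtr1, Ccn1 and Ccn4 stood at 76.7% to 78.6% of the heterozygous level, Amotl2 at 85.5% and Yap1 at 92.2%, while Ccn3, Ccn5 and Ankrd1 lay within 0.09 of the controls on the log2 scale. Of the 9, 6 had a negative and 3 a positive log2 difference, with a median of -0.23 against 0.03 over all genes. In the limma fit over all genes, 2 of the 9 (Ccn2 and Wwtr1) passed a Benjamini-Hochberg adjusted p of 0.05, both lower, where 4.96% of all genes tested were called, 3.87% lower and 1.09% higher. The values of the genotypes did not overlap for 3 of the 9, Ccn2, Wwtr1 and Yap1, all lower in PRKO. Over all genes 7.20% had no overlap, with PRKO wholly below PR+/- in 5.06% and wholly above in 2.15%. Nothing is read from these counts, since the same contrast was in view when the members were chosen.

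**Figure D1:**
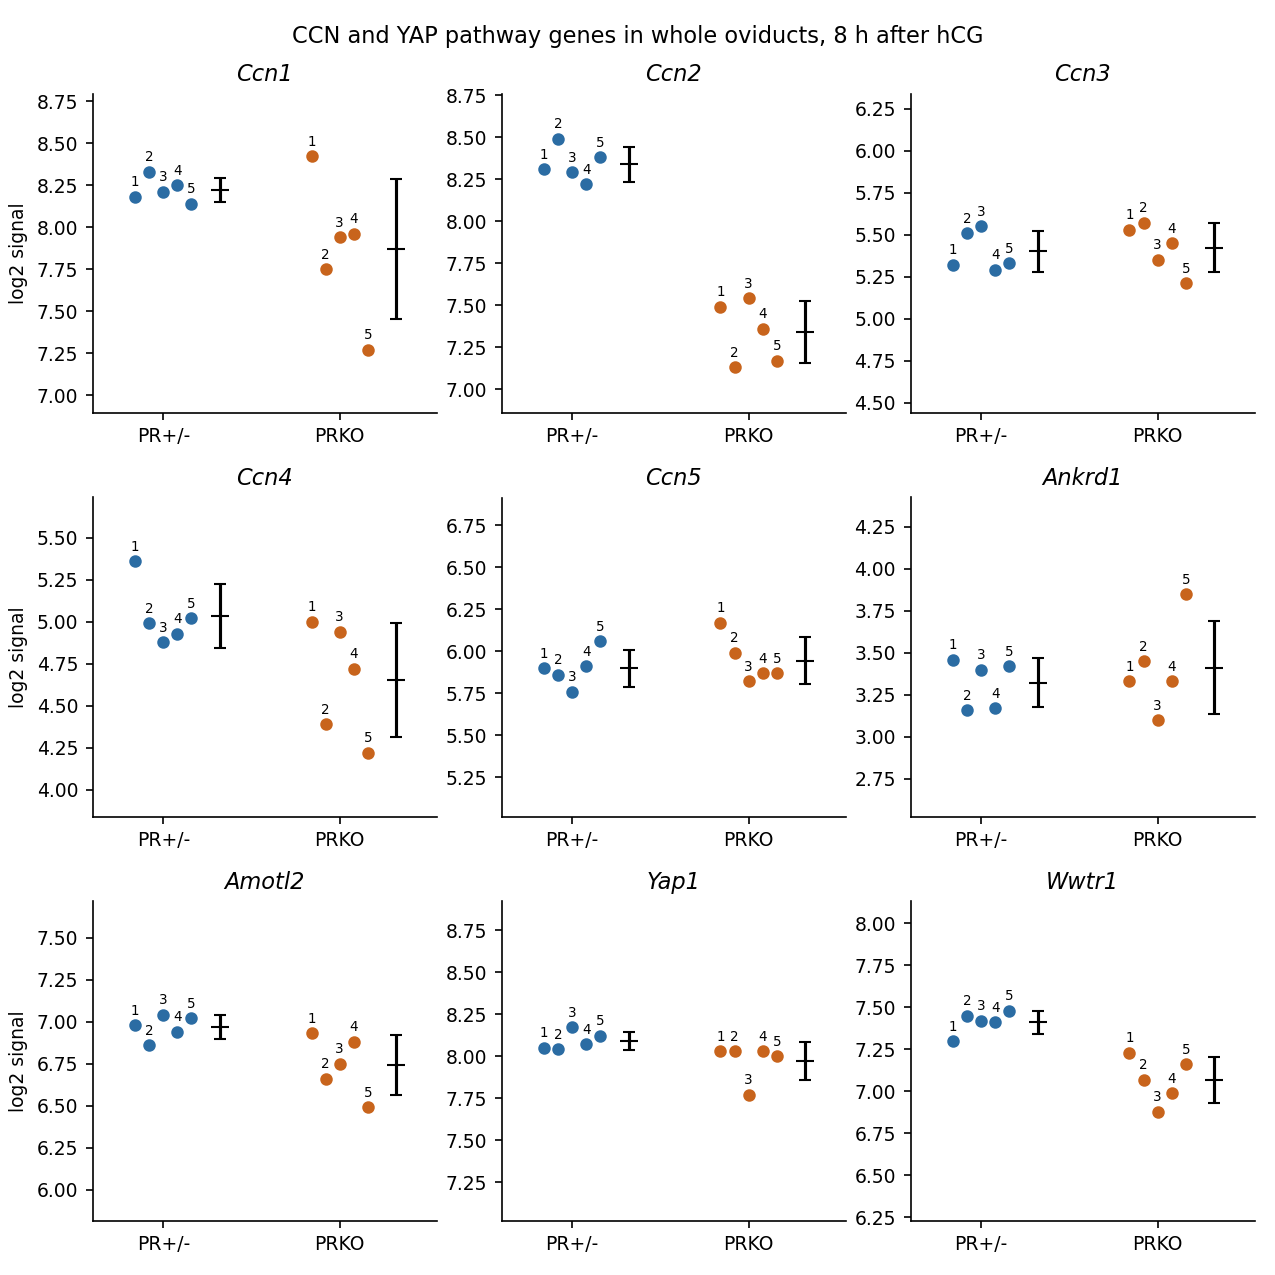
Log2 signal (vertical axes, each spanning the same range) of the 9 genes on the 5 PR+/- and 5 PRKO arrays, with points numbered by replicate and black marks for mean and SD. All PRKO points of Ccn2 (7.13 to 7.54) lie below its lowest control (8.22), whereas the PRKO values of Ccn1 span 7.27 to 8.42 and reach above every control.

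Ccn2, a growth factor-like CCN protein best known for its part in fibrosis and connective tissue formation, had log2 signals of 8.31, 8.49, 8.29, 8.22 and 8.38 in PR+/- replicates 1 to 5. In PRKO replicates 1 to 5 its signals were 7.49, 7.13, 7.54, 7.36 and 7.17. The groups stood 0.68 apart at their nearest values, and all 5 PRKO pools lay below all controls. The log2 difference was -1.0 ± 0.093 (SE, n = 5 against 5; 95% interval -1.20 to -0.80), and over 20 alternative settings it stayed between -1.08 and -0.94.

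Ccn1, an angiogenic CCN protein that integrins bind and one of the fastest genes to respond to growth factors, was spread widely among the PRKO pools. The controls held it at 8.18, 8.33, 8.21, 8.25 and 8.14, a narrow band, and PRKO replicates 1 to 5 at 8.42, 7.75, 7.94, 7.96 and 7.27. PRKO replicate 1 was therefore above every control and the other 4 pools were below every control. Its SD was 0.0708 in PR+/- and 0.416 in PRKO, a ratio of 5.88. The log2 difference was -0.36 ± 0.15 (95% interval -0.69 to -0.02). It was -0.49 without PRKO replicate 1, -0.21 without PRKO replicate 5 and -0.34 ± 0.080 without both, where both arrays were picked as the extremes of Ccn1 itself.

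Of the 7 immediate early genes in the list of SRF targets, 6 were highest on the array that was highest for Ccn1, PRKO replicate 1. The exception was Egr2, at 4.63 on that array and at most 4.94 on the other PRKO arrays. That array was also the highest PRKO pool for Ccn4, Ccn5, Amotl2, Yap1 and Wwtr1, but not for Ccn2, Ccn3 and Ankrd1. The share of all genes that were highest there was not counted. Fos, a subunit of the AP-1 transcription factor, read 7.54, 7.07, 6.68, 6.77 and 6.26 in PRKO replicates 1 to 5 against 6.27 to 6.74 in PR+/-. Fosb, its relative, read 7.46 in PRKO replicate 1 and 6.09 to 6.92 in the other PRKO pools, and Egr1, an early growth response factor, 6.67 against 5.38 to 6.02. Replicate 1 was thus highest of all PRKO pools for Ccn1, Fos, Fosb and Egr1, and replicate 5 lowest for Ccn1, Fos and Egr1. The other immediate early genes were not lowest in replicate 5. Fosb, Egr3, Junb and Ier2 were lowest in PRKO replicate 4, and Egr2 in PRKO replicate 2. Between genotypes Fos, Fosb and Egr1 had log2 differences of 0.27, 0.41 and 0.23, none past an adjusted p of 0.05 (limma, 0.409, 0.277 and 0.518). What part these differences between pools have in the spread of Ccn1 was not tested.

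The other CCN genes were dimmer. Ccn4, a CCN protein induced by Wnt signalling, read 5.36, 4.99, 4.88, 4.93 and 5.02 in PR+/- and 5.00, 4.39, 4.94, 4.72 and 4.22 in PRKO. The ranges overlapped, with 3 PRKO pools below every control, and the log2 difference was -0.38 ± 0.14 (95% interval -0.69 to -0.07). Ccn3, which often opposes Ccn2, ranged over 5.29 to 5.55 in PR+/- and 5.21 to 5.57 in PRKO, a difference of 0.02 ± 0.088 (95% interval -0.17 to 0.21). Ccn5, the CCN protein that lacks the C-terminal cystine knot and restrains smooth muscle growth, ranged over 5.76 to 6.06 and 5.82 to 6.17, a difference of 0.05 ± 0.085 (95% interval -0.14 to 0.23). For both genes the groups overlapped almost fully. The sign of both turned when PRKO replicate 1 was left out (-0.01 each).

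The target genes Amotl2 and Ankrd1 had smaller differences than Ccn2, and only that of Amotl2 was negative. Amotl2, an angiomotin family protein that binds YAP and holds it at cell junctions, read 6.98, 6.86, 7.04, 6.94 and 7.02 in PR+/- and 6.93, 6.66, 6.75, 6.88 and 6.49 in PRKO. With 3 PRKO pools below every control and 2 among them, the log2 difference was -0.23 ± 0.089 (95% interval -0.42 to -0.04). Ankrd1, an ankyrin repeat protein of nucleus and sarcomere that is abundant in heart, read 3.16 to 3.46 in PR+/- and 3.10 to 3.85 in PRKO, with a difference of 0.09 ± 0.12 (95% interval -0.17 to 0.35). Its mean lay below 4.31, the level that bounds the dimmest 30% of genes, and its sign turned in 5 alternatives, the furthest to -0.07 when the fit adjusted for the interquartile range of each array.

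Of the coactivators, Wwtr1 (TAZ) read 7.30, 7.45, 7.42, 7.41 and 7.48 in PR+/- and 7.23, 7.07, 6.88, 6.99 and 7.16 in PRKO. The ranges were separate by 0.07, and the log2 difference was -0.35 ± 0.080 (95% interval -0.52 to -0.18), or 1.27-fold lower. Wwtr1 no longer passed the threshold over all genes in 8 of 20 alternatives: with quantile or cyclic loess normalization (-0.29 and -0.30), with the interquartile range as a covariate (-0.40), without PR+/- replicate 2, 3 or 5 (-0.34, -0.35 and -0.33), without PRKO replicate 3 (-0.30) and without PR+/- replicate 4 and PRKO replicate 3 together (-0.30). Yap1 read 8.05, 8.04, 8.17, 8.07 and 8.12 in PR+/- and 8.03, 8.03, 7.77, 8.03 and 8.00 in PRKO. Those ranges were separate by only 0.005, with 4 of the PRKO pools just below the controls and replicate 3 well below. The Yap1 difference was -0.12 ± 0.074 (95% interval -0.28 to 0.04).

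**Figure D2:**
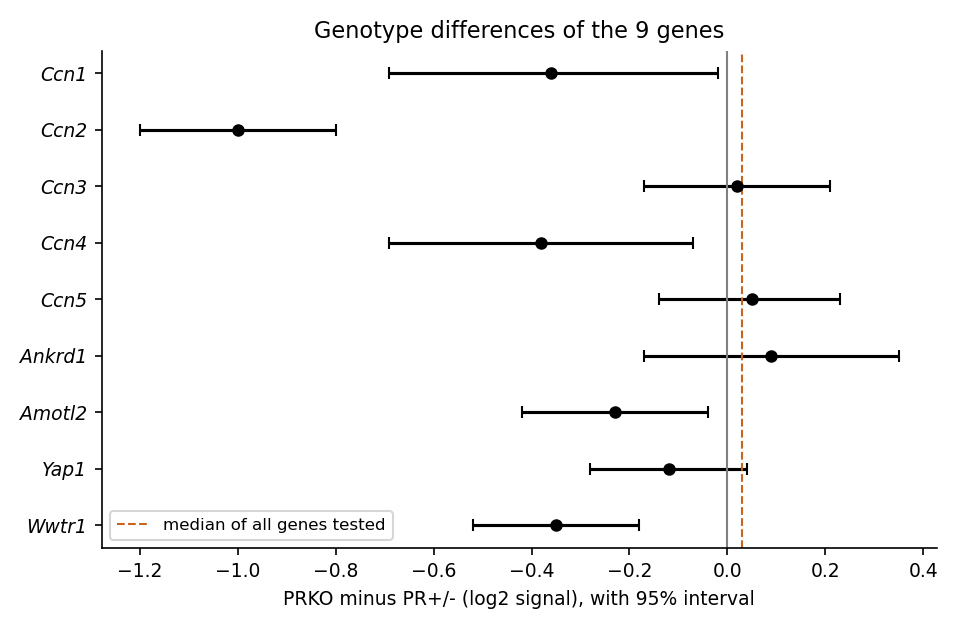
PRKO minus PR+/- difference in log2 signal (horizontal axis) of each of the 9 genes with its 95% interval, n = 5 arrays per genotype, and the median of all genes tested as a dashed line at 0.03. The Ccn2 interval, -1.20 to -0.80, ends below the start of the other 8.

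Every one of the 9 genes varied more among PRKO than among PR+/- pools, with SD ratios of 1.20 for Ccn3 to 5.88 for Ccn1, and 74.7% of all genes had the larger SD in PRKO. PRKO replicate 5 was the lowest PRKO pool for Ccn1, Ccn3, Ccn4 and Amotl2, and replicate 3 for Ccn5, Ankrd1, Yap1 and Wwtr1. Replicate 5 also had the narrowest spread of values on the array, with an interquartile range of 3.13 log2 units against 3.37 to 3.48 in PR+/-. When the fit adjusted for that range, the Ccn2 difference was -0.99 ± 0.13 and that of Ccn1 -0.12 ± 0.19. PRKO replicate 3 and PR+/- replicate 4 carried the most ovarian marker signal, and without both arrays the Ccn2 difference was -1.08 ± 0.10 and that of Wwtr1 -0.30 ± 0.089.

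Whether the 9 genes vary together within a genotype is a question that the choice of members did not use. Values were centred on each genotype's mean over the 10 arrays and each of the 36 pairs was tested by exact permutation within genotypes (14400 arrangements, two-sided). No pair passed at a Benjamini-Hochberg adjusted p of 0.05, and 2 had an unadjusted Pearson p under 0.05. The first, Ccn1 with Ccn4, had a Pearson r of 0.74 (exact p = 0.0367, adjusted 0.455) and a Spearman coefficient of 0.20 (exact p = 0.640, adjusted 1). Ccn1 with Amotl2 had an r of 0.81 (exact p = 0.0483, adjusted 0.455) and a Spearman coefficient of 0.15 (exact p = 0.735, adjusted 1). Without the 2 arrays farthest from the median of Ccn1 these r values were 0.31 and 0.10, so both rest on those arrays. Both pairs also differed in sign between genotypes, over 5 arrays each. Ccn1 with Ccn4 had an r of -0.36 in PR+/- and 0.90 in PRKO, and Ccn1 with Amotl2 -0.86 and 0.95. By rank, Ccn1 with Ankrd1 had a Spearman coefficient of -0.75 (exact p = 0.0336, adjusted 0.913) and an r of -0.72 (exact p = 0.102, adjusted 0.455). Ccn1 with Ccn2 had an r of 0.66 (exact p = 0.114, adjusted 0.455), a Spearman coefficient of 0.30 (exact p = 0.462, adjusted 1) and, without 2 arrays, an r of 0.67. Within the genotypes that r was 0.38 in PR+/- and 0.73 in PRKO, over 5 arrays each.

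The genes most like a member in these deviations, among the 9969 above median brightness, are given as a description over the same 10 arrays. They were picked for the highest r, and the r that such a search gives by chance was not computed. For Ccn1 they were Eef1a1, a translation elongation factor (r = 0.978), Cmc1, a mitochondrial protein (0.961), Psmc3, a proteasome subunit (0.947), and Ndufa10, a subunit of respiratory complex I (0.946). Like Ccn1, each of these was highest in replicate 1 and lowest in replicate 5 among the PRKO pools. For Eef1a1 the values there were 12.96 and 12.77, against 12.98 to 13.01 in PR+/-. Those nearest to Ccn2 were Nol12, a nucleolar protein (0.892), Pgap3, which remodels lipid anchors (0.875), Gss, glutathione synthetase (0.866), and the zinc transporter gene Slc39a3 (0.863). Ankrd1 lay nearest to Col18a1, a basement membrane collagen (0.925), Zfp607a, a zinc finger gene (0.884), the autophagy gene Atg101 (0.859) and Camta1, a transcription activator (0.855). None of these 12 differed between genotypes at an adjusted p of 0.05 (limma), and for Zfp607a the adjusted p was 0.0620, or 0.0399 without PRKO replicate 3.

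Among 34 measured Hippo kinases and upstream regulators, 3 fell, where 3.87% of all genes were called lower, and 31 did not pass. Like the members, this list and those below were chosen with earlier results of these data known, so their counts are a description. Dchs1, an atypical cadherin that signals to the pathway through Fat4, fell from 6.21 to 6.58 in PR+/- to 5.67 to 5.81 in PRKO, a log2 change of -0.59 ± 0.080 (limma adjusted p = 4.71e-04). Lats2, the kinase that phosphorylates YAP and TAZ and is itself their target, read 6.89, 6.97, 6.93, 6.77 and 6.96 in PR+/- and 6.64, 6.63, 6.53, 6.47 and 6.43 in PRKO (-0.36 ± 0.073, adjusted p = 0.0100). Adjusted for the interquartile range of each array, its difference was -0.30 with an adjusted p of 0.181, and 1 gene of the list was called. All PRKO values of Dchs1 and Lats2 lay below all controls. Frmd6, a scaffold upstream of the kinases, fell by 0.48 ± 0.11 (adjusted p = 0.0179), which became 0.0555 without PR+/- replicate 1 and 0.0542 without PR+/- replicate 2. The list's median log2 difference was -0.02. No gene of it rose, while 4 were lower and 2 higher at an unadjusted p under 0.05. Over all 19938 genes, 4215 had such a p, 2007 of them higher, which is the background for these counts in the lists and markers below.

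The other core kinases that were measured were nearer to the controls. Stk3 had no probe set annotated to it alone, so it has no value here. Lats1 had a log2 difference of -0.03 ± 0.080 (limma adjusted p = 0.865) and Stk4, an upstream kinase, 0.06 ± 0.069 (0.651). Sav1, the scaffold that pairs with those kinases, was lower in every PRKO pool, at 6.47 to 6.97 against 7.05 to 7.12, with a difference of -0.27 ± 0.092 that did not pass (0.114). None of the 8 TEAD factors and VGLL cofactors was called by limma, and 2 were lower at an unadjusted p under 0.05. Tead1, Tead2, Tead3 and Tead4, the factors that carry YAP and TAZ on DNA, had differences of -0.02, -0.11, -0.21 and 0.07 (adjusted p 0.888, 0.360, 0.166 and 0.753). The second, dimmer probe set of Tead1 gave -0.16. Vgll3, a TEAD cofactor, had the largest difference of that list, -0.30 ± 0.14 (adjusted p = 0.233).

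Other target genes of YAP and TAZ, 18 from a published signature after leaving out any of the 9 genes in it, were lower in a few members. Of the 18, 3 fell, where 3.87% of all genes were called lower, and 15 did not pass. The list's median log2 difference was -0.09. Axl, a receptor tyrosine kinase, fell from 7.32 to 7.46 in PR+/- to 6.90 to 7.24 in PRKO (-0.36 ± 0.077, limma adjusted p = 0.0139), and Lats2, described above, belongs to this list too. Without PRKO replicates 1 and 5 the adjusted p of Axl was 0.0637. Rbms3, an RNA-binding protein, fell by 0.31 ± 0.084 (adjusted p = 0.0464), a call lost when any array but PRKO replicate 3 was left out (0.0565 to 0.115). None of the 18 rose, and 6 were lower and 0 higher at an unadjusted p under 0.05. Adjusted for the interquartile range, limma called 0 of the 18, and 4 had an unadjusted p under 0.05, 1 of them higher.

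**Figure D3:**
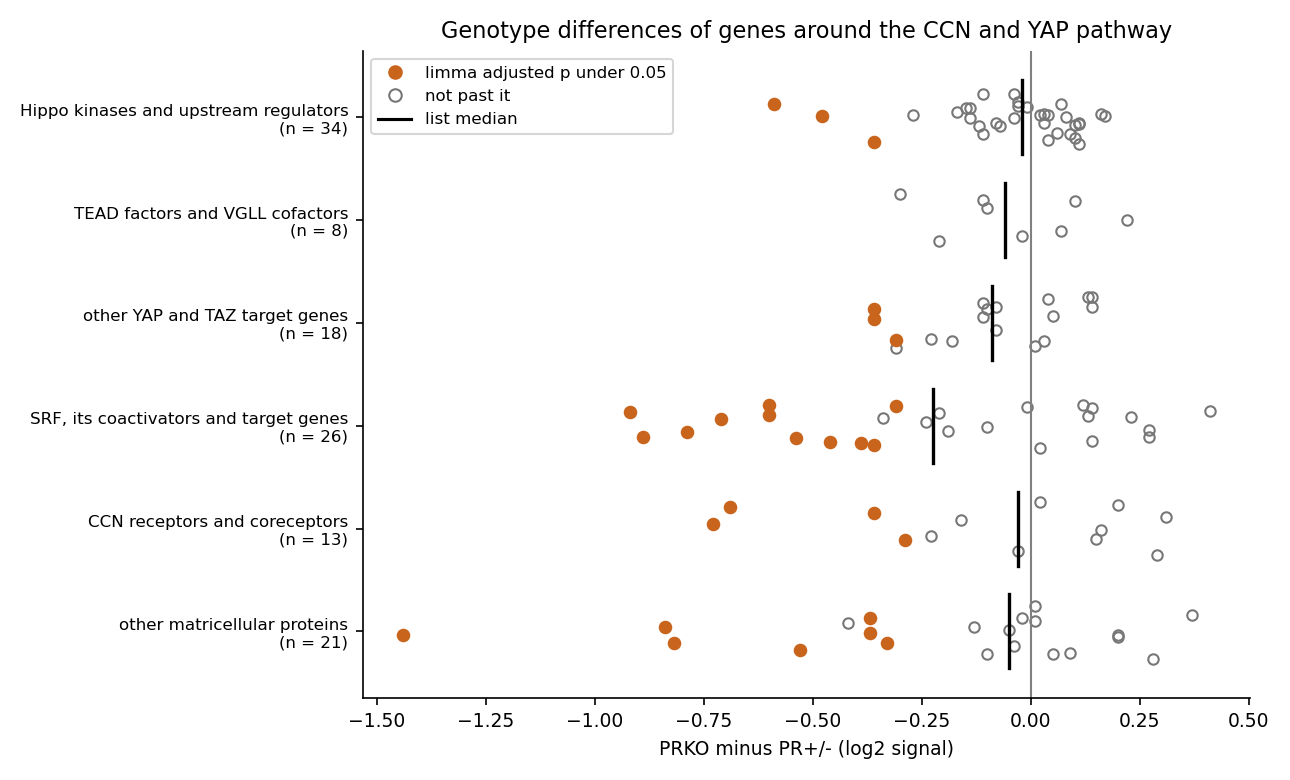
PRKO minus PR+/- difference in log2 signal (horizontal axis) of each measured gene of 6 lists around the CCN and YAP pathway, with filled points past a limma adjusted p of 0.05, open points not past it and a black line at each list's median. All filled points lie left of 0, in 5 of the lists, and the TEAD list has none, while under quantile normalization 4 genes of 3 lists were called higher.

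In the list of SRF, its coactivators and their target genes, more genes were called lower. Of 26 measured, 11 fell, where 3.87% of all genes were called lower, and 15 did not pass. The list's median log2 difference was -0.22. Fhl1, a LIM protein of muscle, fell from 9.24 to 9.55 to 8.51 to 8.66 (-0.79 ± 0.074, limma adjusted p = 1.56e-05). Myocd, a coactivator of SRF in smooth muscle, fell by 0.92 ± 0.11, Myl9, a myosin light chain, by 0.89 ± 0.11, and Tgfb1i1, an adhesion adaptor, by 0.71 ± 0.090, with adjusted p-values of at most 2.74e-04. Srf itself fell by 0.46 ± 0.12 (adjusted p = 0.0346), a call that held only without PRKO replicate 2 or PRKO replicate 5 when arrays were left out singly (otherwise 0.0501 to 0.0882). Its difference was -0.17 (adjusted p = 0.569) when the fit adjusted for the interquartile range. The coactivator genes Mrtfa and Mrtfb had differences of -0.34 and 0.27 (adjusted p 0.0619 and 0.0547), and passed without PRKO replicate 2 (0.0193) and without PRKO replicate 1 (0.0242). Mrtfa also passed without the dimmest 30% of genes (0.0404). Mrtfb was called higher in 6 of 20 alternatives, among them quantile normalization (0.0276). The other probe sets of Mrtfb gave 0.01 and -0.25, so its direction is uncertain. No gene of the list rose, and 14 were lower and 1 higher at an unadjusted p under 0.05. The immediate early genes of the list (Fos, Fosb, Egr1, Egr2, Egr3, Junb and Ier2) were not called. Their differences were all positive, from 0.02 (Ier2) to 0.41 (Fosb). Quantile normalization called 10 lower and 1 higher. The other genes called lower in the main fit were Tagln, Flna, Acta2, Zyx, Tpm1 and Vcl. Smooth muscle markers, given below, were lower on the same arrays, and Acta2 is in both lists.

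Of 13 receptors and coreceptors of CCN proteins, 4 integrin subunits fell, where 3.87% of all genes were called lower, and 9 genes did not pass. The list's median log2 difference was -0.03. Itgb5 and Itgb3, the partners of alpha V in binding CCN proteins, fell by 0.73 ± 0.080 and 0.69 ± 0.10 (limma adjusted p 7.74e-05 and 8.01e-04). The alpha V gene Itgav itself had a difference of 0.02. Itgb1 and Itga5 fell by 0.29 and 0.36 (adjusted p 0.0287 and 0.0459). The Itgb1 call was lost when any array but PRKO replicates 3, 4 or 5 was left out (0.0524 to 0.0793), and that of Itga5 when any but PRKO replicate 1 was left out (0.0623 to 0.111). None rose, and 5 were lower and 3 higher at an unadjusted p under 0.05. Under quantile normalization 2 fell and 2 rose, with a list median of 0.02.

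Of 21 other matricellular proteins, which like the CCN proteins modulate cells from within the matrix, 7 fell and 14 did not pass. The list's median was -0.05, and 3.87% of all genes were called lower. Postn, periostin, fell by 1.44 ± 0.12, Tgfbi, a matrix protein induced by TGF beta, from 8.31 to 8.40 to 7.32 to 7.62 (-0.84 ± 0.077), Spock2, a testican proteoglycan, by 0.82 ± 0.094 and Sparcl1, an adhesion-modulating relative of Sparc, by 0.53 ± 0.087. Their limma adjusted p-values were at most 0.00238. None of the list rose, and 8 were lower and 2 higher at an unadjusted p under 0.05, while quantile normalization called 6 lower and 1 higher. The sixth CCN gene, Ccn6, belongs to this list and had a difference of -0.10.

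Cell type markers moved beside these genes. All 8 smooth muscle markers fell, where 3.87% of all genes were called lower. Their summed linear signal was 8286 to 9173 in PR+/- and 4482 to 5826 in PRKO. Fibroblast markers summed to 8816 to 10137 and 8009 to 9220, with 1 of 7 called lower (Pdgfra), and of the endothelial and mesothelial markers 2 of 6 and 1 of 5 fell. Among 5 secretory, 6 multiciliated and 5 leukocyte markers limma called 0, with 0, 1 and 0 at an unadjusted p under 0.05, and their sums overlapped between genotypes. The ovarian markers reached sums of 411 (PR+/- replicate 4) and 441 (PRKO replicate 3), and stayed at 112 to 146 elsewhere. Adipocyte and striated muscle markers stayed low, at sums of 46 to 64 and 158 to 202, with 0 of 4 and 0 of 6 called by limma and 2 of each higher at an unadjusted p under 0.05. In whole tissue, fewer smooth muscle cells and less RNA per cell cannot be told apart.

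Within PRKO, replicates 2, 5, 4 and 3 had muscle sums of 5362, 5636, 5807 and 5826 and Ccn2 signals of 7.13, 7.17, 7.36 and 7.54, the same order in both. PRKO replicate 1 stood outside that order, with the lowest muscle sum, 4482, the second highest Ccn2 (7.49) and the highest Ccn1 (8.42) of its group. It was set apart after the values were seen, so the shared order of the rest is a description only. In the order 2, 5, 4 and 3 the Ccn1 signals were 7.75, 7.27, 7.96 and 7.94. PR+/- replicates 4, 2, 3, 5 and 1 stood in rising order of muscle sum, from 8286 to 9173. Their Ccn2 signals, 8.22, 8.49, 8.29, 8.38 and 8.31, did not follow that order. The part of the muscle signal in the genotype differences of Ccn2, Wwtr1 and the lists was not tested.

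**Figure D4:**
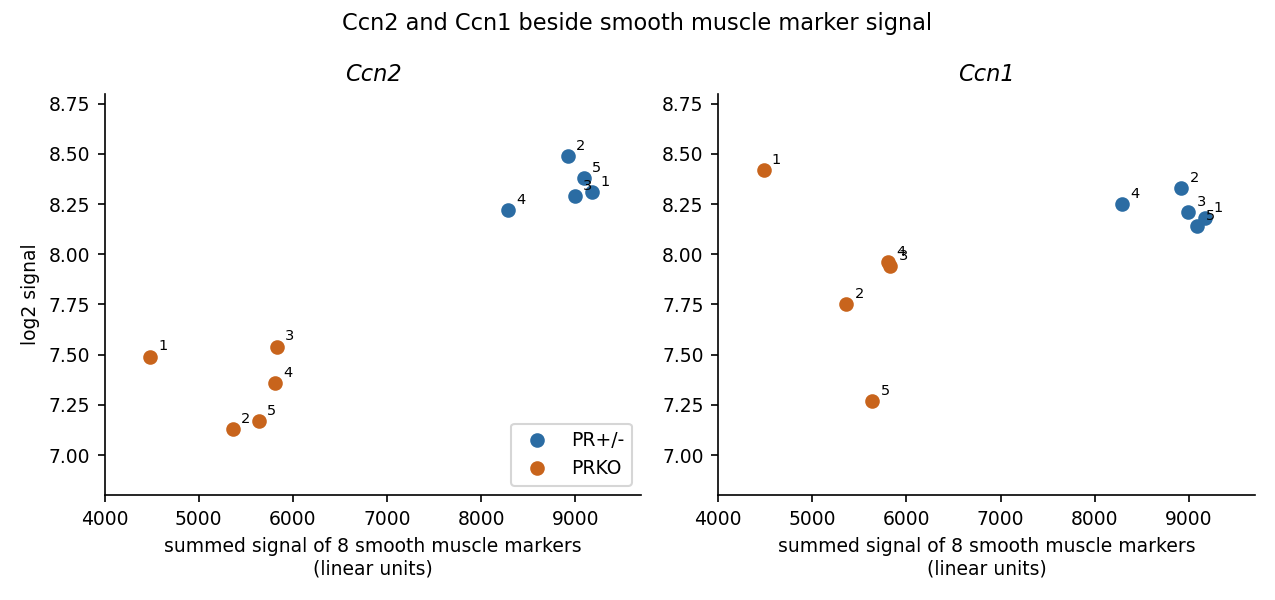
Log2 signal of Ccn2 (left) and Ccn1 (right) against the summed linear signal of 8 smooth muscle markers on each array, points numbered by replicate and coloured by genotype. Both axes separate the genotypes for Ccn2, while Ccn1 of PRKO replicate 1 (8.42) lies above every control at the lowest muscle sum, 4482.

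The genotype labels and the arrays as a whole bear on these values as follows. Pgr, read by a probe set whose position relative to the insertion was not examined, averaged 7.42 ± 0.110 (SD) over the PR+/- arrays and 6.36 ± 0.0369 over the PRKO arrays, and was lower in all 5 of the latter. The exact permutation test, two-sided, gave p = 0.00794, which is the lowest value possible with 252 arrangements. Between arrays of a genotype, r over genes was 0.9945 to 0.9964 for PR+/- and 0.9877 to 0.9924 for PRKO. Limma called 988 of the 19938 genes, 771 of them lower. With arrays centred on their medians 653 were lower and 377 higher, and leaving out PR+/- replicate 1 or 2 left 581 or 598.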

How the data were processed

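Total RNA from oviduct pools was labelled with biotin and hybridised to Affymetrix whole-transcript arrays, per the labels. The authors processed the arrays with Partek, per the submitters' processing notes, and deposited 1 value per probe set and array, taken here as a normalized log2 signal. That scale was inferred from the range (1.09 to 13.58), and folds hold only if it is right. The version, background correction and normalization method are not given in the sources. Array medians lay between 5.20 and 5.28, so values were not normalized again, and no dim probe sets were removed in the main fit.

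Of 35557 rows, 21789 had 1 gene symbol in the platform annotation, 1621 several and 12147 none in that table. The brightest probe set stood for each of 19938 genes. Genotypes were compared with limma 3.58.1 (R 4.3.3, eBayes with 8 residual and 6.08 prior degrees of freedom), with Benjamini-Hochberg adjustment over all genes and a call at 0.05. Values with ± are SE unless SD is stated.

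The members and lists were chosen with earlier results of these data known, and the 18 target genes were recalled from a published signature. Genes were named as all members, Pgr, the TEAD genes and core kinases, up to 4 called genes of each list by smallest p (or its largest difference where none was called), and the 4 genes closest to Ccn1, Ccn2 and Ankrd1. Srf, Mrtfa, Mrtfb, Arhgef17, Fos, Fosb and Egr1 were chosen after their values were seen. So were the genes named in passing (Itgav, Ccn6, Pdgfra, Egr2, Egr3, Junb, Ier2, Tagln, Flna, Acta2, Zyx, Tpm1 and Vcl). The fit and the pair test were tested on simulated data with the same spread in both genotypes. In the arrays 74.7% of all genes had the larger SD in PRKO, which those simulations do not cover.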

Additional observations from a re-analysis of the deposited data

Results flagged for a closer look

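Among 54 genes examined in both genotypes, 1 array of 5 stood apart from the other 4 in 5 of 108 groups, and chance alone gives about 1 in 20. Yap1 read 7.77 in PRKO replicate 3, where the other PRKO pools had 8.00 to 8.03. Tead4 was high in PRKO replicate 1, at 5.34 against 4.76 to 4.92. In PR+/- replicate 3 Dchs1 reached 6.58, where the other controls had 6.21 to 6.29. Gss was highest in PR+/- replicate 2 (7.13 against 6.98 to 7.01), and Fos lowest in PR+/- replicate 1 (6.27 against 6.61 to 6.74).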

How the results depend on the processing

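Over 20 alternatives no examined gene changed side between called higher and called lower, and Ccn2 and Wwtr1 stayed lower. Of 45 genes examined beside the members, 34 kept their side of the threshold in every alternative run. In at least 1 alternative 7 lost a call (Lats2, Frmd6, Axl, Rbms3, Itgb1, Itga5 and Srf) and 4 gained one (Zfp607a, Mrtfa, Mrtfb and the YAP and TAZ target Arhgef17). A covariate for the interquartile range of each array, narrower on average in PRKO, left 322 called genes instead of 988, 1 Hippo regulator instead of 3 (Lats2 at an adjusted p of 0.181 and Frmd6 at 0.242) and 0 of the YAP and TAZ targets instead of 3, and Ccn3 had a difference of 0.18. Without PR+/- replicate 4 and PRKO replicate 3 the counts were 562 genes and 2 CCN receptors instead of 4, and Frmd6 had an adjusted p of 0.0698. Without PRKO replicates 1 and 5, a choice made after seeing the data, 1 YAP and TAZ target was called. Leaving out 1 array gave 581 to 1165 called genes and 2 to 4 CCN receptors. The replicate number as a block gave 1042 called genes (788 lower), 2 called members, a Ccn2 difference of -1.0 ± 0.10 and 6 matricellular genes instead of 7. Same-numbered arrays deviated together at correlations of -0.01 to 0.16, 3 of 5 over 0.1, and 5 of 10 arrays correlated best with their own number, so whether the numbers mark shared handling is not settled. The number of covarying pairs was 0 in all 15 alternatives run. Ankrd1 has no value where the dimmest 30% of genes were removed. The cause of these shifts was not tested. Signal over background is unknown, which limits the dim genes Ankrd1, Ccn4, Ccn3, Vgll3 and Tead4.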
